A study of Caenorhabditis elegans with 2 samples.

Results

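The regions described here are candidate regions of NHR-28 occupancy whose summit, the position of highest signal, lies within 500 bp of a nuclear tRNA gene of Caenorhabditis elegans. They were chosen by position alone, from the ce11 list that the authors made from both replicates together, with the distance taken from the summit to the nearest base of the gene and set to 0 inside it. Of 29975 nuclear regions in that list, 222 met this rule and 29753 did not; the list's other 25 regions, of 30000 in all, are mitochondrial and were left out. NHR-28 is a nuclear hormone receptor, a transcription factor with a zinc-finger DNA-binding domain. It carried an eGFP tag and was mapped by chromatin immunoprecipitation and sequencing (ChIP-seq) in the transgenic strain OP317, genotype unc-119(ed3) III; wgIs317. Whole L1 larvae, the first larval stage, of mixed sex were used. There was 1 group with 2 biological replicates, so no condition could be compared, and a signal from whole animals does not say which cells it came from.

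tRNA genes are short and are transcribed by RNA polymerase III. Their promoter lies inside the transcribed sequence, in elements called the A box and the B box, and the B box is recognised by the factor TFIIIC. The letters GTTCGA belong to the usual B box and encode the T loop of the tRNA. In C. elegans many tRNA genes occur as identical copies at several places, and many lie inside introns of protein-coding genes. Nuclear hormone receptors act instead with RNA polymerase II, mostly at regulatory sequence of protein-coding genes. The annotation lists 612 nuclear tRNA genes of 64 to 122 bp, with a median of 72 bp, and 442 of them (72.2%) hold GTTCGA.

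The 10 regions of highest signal carry the strongest data of the set, so tRNA genes beside them are shown first, 6 of the 10. The other 4, M02F4.t1, R01H5.t1, F13G11.t1 and C44B7.t1, are named only, by a rule on where their identical copies lie and not on their signal or letters. The 6 genes are read from the reference genome (RefSeq, WBcel235, the same assembly as ce11) on the strand of the gene from 5′ to 3′, with GTTCGA in capitals. C18A11.t2 (Arg) lies on the minus strand at chrX:8036685-8036757, C04E7.t1 (Leu) on the minus strand at chrX:353255-353336, Y38E10A.t1 (Ala) on the plus strand at chrII:12678314-12678385, T01B4.t1 (Val) on the plus strand at chrX:16298341-16298413, C36C9.t2 (Arg) on the plus strand at chrX:1698674-1698746 and C16D9.t4 (Tyr) on the plus strand at chrV:8247481-8247564. All 6 lie outside protein-coding genes.
C18A11.t2: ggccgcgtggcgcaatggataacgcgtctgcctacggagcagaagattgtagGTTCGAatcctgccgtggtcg
C36C9.t2: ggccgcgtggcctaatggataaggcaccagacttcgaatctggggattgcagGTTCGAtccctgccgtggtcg
C04E7.t1: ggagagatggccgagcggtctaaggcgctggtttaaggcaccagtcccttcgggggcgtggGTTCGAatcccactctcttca
Y38E10A.t1: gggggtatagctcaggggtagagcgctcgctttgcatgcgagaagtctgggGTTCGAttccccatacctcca
T01B4.t1: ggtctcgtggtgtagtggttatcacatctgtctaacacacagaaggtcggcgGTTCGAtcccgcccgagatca
C16D9.t4: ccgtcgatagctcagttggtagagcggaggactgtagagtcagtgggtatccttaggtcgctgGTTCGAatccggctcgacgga

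Sequence around the 3 highest summits follows. The summit at M02F4.t1, the highest of the set, lies inside the gene, and the 100 bases before that gene are shown (plus strand, chrX:3036064-3036163). For C18A11.t2 and C04E7.t1 the summit with the 50 bases on each side is shown (plus strand, chrX:8036302-8036402 and chrX:353325-353425). Capitals mark GTTATAAC, a palindrome that occurs at a pair of places under the C18A11.t2 summit, and GAGAGA on either strand. In the C04E7.t1 stretch GAGAGA is read as its complement TCTCTC, which lies not at the summit but in the 5′ end of the tRNA gene itself, since the stretch overlaps that gene.
M02F4.t1, 100 bases before the gene: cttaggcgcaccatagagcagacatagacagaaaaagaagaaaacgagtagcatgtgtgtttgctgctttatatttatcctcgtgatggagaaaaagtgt
C18A11.t2, summit: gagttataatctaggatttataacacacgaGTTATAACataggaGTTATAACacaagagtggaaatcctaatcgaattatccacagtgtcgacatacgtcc
C04E7.t1, summit: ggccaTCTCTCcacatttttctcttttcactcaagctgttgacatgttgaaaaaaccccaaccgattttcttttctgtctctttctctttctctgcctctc

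All 222 regions were 330 bp wide. Of these, 116 lay on X, and chromosomes I to V held 25, 15, 18, 29 and 19 in that order. The share on X was 52.3%, against 17.9% of the other nuclear regions, and 276 of the 612 tRNA genes (45.1%) lie on X. The regions pointed to 193 different nearest tRNA genes. 30 of them had more than 1 tRNA gene within 500 bp, 56 shared their nearest gene with another region, and merging overlapping regions left 207 places, so neighbouring regions are not independent. Only region lists were used, with no read numbers, and sequencing depth is therefore unknown. Nuclear signal values reached 79.4 in replicate 1 (median 11.3) and 59.3 in replicate 2 (median 9.003). The lists hold a fixed number of regions, background included, so presence in a list is not occupancy.

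As a set, regions near tRNA genes ranked like the rest of the nuclear list. The signal of a region, the authors' own value relative to a control, ran from 12.6 to 69.7 (median 17.2) near tRNA genes and from 12.53 to 125.8 (median 17.1) in the other nuclear regions. The highest decile began at 26.6 near tRNA genes and at 26.05 elsewhere. Ranked by signal among nuclear regions, with 1 the highest, the median rank was 14764.5 near tRNA genes, with a 95% interval from 12263 to 16876 over regions, and 14991 in the others. Among the 3000 highest regions were 25 of 222 near tRNA genes (11.3%, exact Clopper-Pearson 95% interval 7.42 to 16.2%) and 2975 of 29753 others, where the background over all nuclear regions is 10%. That share is close to the background. Intervals cover counting error over regions only.

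**Figure D1:**
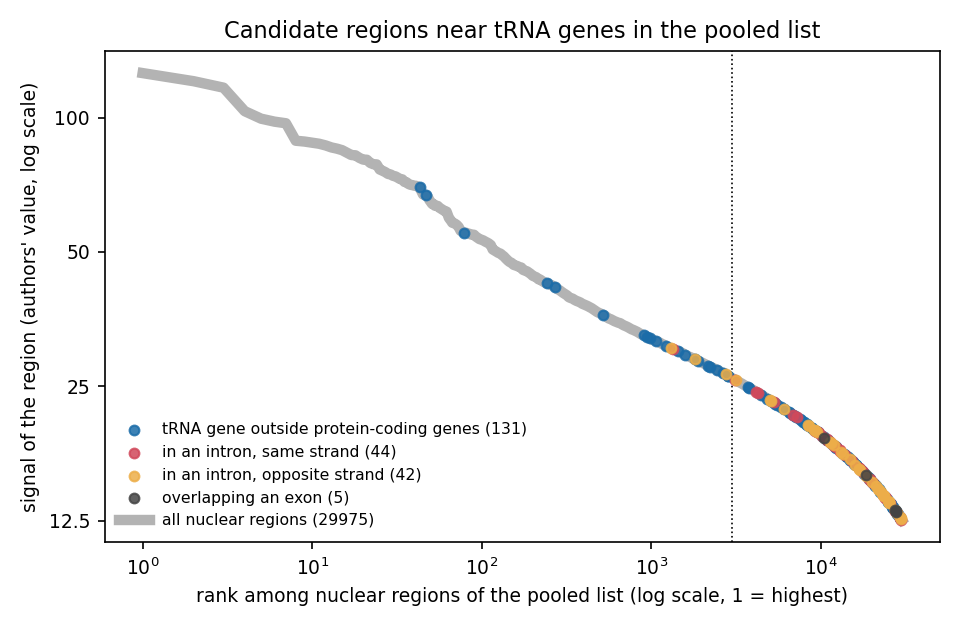
Signal of each of the 222 regions near tRNA genes (points, coloured by where the tRNA gene lies) against its rank among 29975 nuclear regions (grey line), both on log scales; the dotted line marks rank 3000. Most points lie beyond rank 3000, and the 10 highest points are all regions whose tRNA gene lies outside protein-coding genes.

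A few single regions stood well above the rest. The authors' list thresholded by the irreproducible discovery rate held 134 nuclear peaks. These were the 134 highest nuclear regions of the pooled list. Being listed thus went with pooled rank, and does not by itself show a high rank in each replicate. The thresholded list included 3 of 222 regions near tRNA genes (1.35%, interval 0.280 to 3.90%) and 131 of the other nuclear regions, against a background of 0.447%. All 3 lay on X beside tRNA genes outside protein-coding genes.

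The first was at the glycine tRNA gene M02F4.t1 (chrX:3036164-3036235, plus strand), inside which its summit lay. Its region, chrX:3036028-3036357, had a signal of 69.7 in the pooled list (rank 43), 34.3 in replicate 1 (rank 83) and 30.8 in replicate 2 (rank 44). It was the region with the most even ranks of the 3. The gene has 29 identical copies counting itself, the largest number of any tRNA gene here.

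The second lay 333 bp downstream of the arginine tRNA gene C18A11.t2, at chrX:8036187-8036516. Its signal was 67.0 in the pooled list (rank 47), 52.04 in replicate 1 (rank 12) and 14.8 in replicate 2 (rank 2538). It was far higher in the order of replicate 1 than in that of replicate 2. The nearest protein-coding gene start, that of the sex-determination gene xol-1, was 4961 bp away, and the summit sequence is the one with GTTATAAC printed above.

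The third lay 39 bp upstream of the leucine tRNA gene C04E7.t1, at chrX:353210-353539. Its signal was 55.3 in the pooled list (rank 79), 28.9 in replicate 1 (rank 173) and 22.5 in replicate 2 (rank 250). Both replicates placed it high. The start of sor-3, a protein-coding gene, lay 244 bp from the summit, so the summit was close to a tRNA gene and to a protein-coding start, and these cannot be told apart.

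The next 3 regions in order of pooled signal were the following. At the alanine gene Y38E10A.t1 the region 284 bp upstream had 42.6 in the pooled list (rank 244), 21.5 in replicate 1 (rank 878) and 19.3 in replicate 2 (rank 619). The start of Y38E10A.22, a protein-coding gene, lay 220 bp from that summit, nearer than the tRNA gene. At the valine gene T01B4.t1 the region 498 bp upstream had 41.8 in the pooled list (rank 269), 18.5 in replicate 1 (rank 2030) and 21.4 in replicate 2 (rank 335). Both kept a rank inside the 3000 highest in each replicate. At the threonine gene R01H5.t1 the region had 36.2 in the pooled list (rank 517) and 24.4 in replicate 1 (rank 425), and no region of replicate 2 overlapped it.

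The remaining 4 of the 10 highest were not among the 3000 highest in both replicates. The arginine gene F13G11.t1 had 32.6 in the pooled list (rank 902), 13.1 in replicate 1 (rank 9555) and 19.9 in replicate 2 (rank 528). The other arginine gene, C36C9.t2, had 32.2 in the pooled list (rank 946), 16.4 in replicate 1 (rank 3753) and 14.2 in replicate 2 (rank 3081). C36C9.t2 is the only one of the 10 that has no identical copy in the genome. The glutamate gene C44B7.t1 had 32.0 in the pooled list (rank 984), 11.4 in replicate 1 (rank 14712) and 17.7 in replicate 2 (rank 1005), and its summit lay 256 bp from the start of hrpl-1. The tyrosine gene C16D9.t4 had 31.6 in the pooled list (rank 1060), 18.4 in replicate 1 (rank 2065) and 11.04 in replicate 2 (rank 8195). No single replicate was the higher one across these genes.

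Most regions near tRNA genes had a counterpart in at least 1 replicate list, and fewer had one in both. A replicate region that overlapped by at least 1 bp was present for 149 of 222 regions in replicate 1 (67.1%) and for 67.1% of the others, and for 143 in replicate 2 (64.4%, interval 57.7 to 70.7%) and 58.8% of the others. Both replicates held a region for 84 of 222 (37.8%, interval 31.4 to 44.6%), against 34.7% of the other regions and a background of 34.7%. Neither replicate held one for 14 (6.31%) and for 8.80% of the others. With summits matched within 100 bp the shares found in both were 18.9% and 17.5%. The interval for both replicates holds the background, so the share found in both did not differ detectably from that of the nuclear list.

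Regions among the 3000 highest of both replicates numbered 8 of 222 (3.60%, interval 1.57 to 6.98%), against 1.83% of the other regions and a background of 1.84%. These 8 regions are 5 places, at M02F4.t1, C18A11.t2, C04E7.t1, Y38E10A.t1 and T01B4.t1. At C18A11.t2, C04E7.t1 and Y38E10A.t1 a second pooled region of lower signal (20.1, 14.5 and 17.4) overlapped the same replicate region and was counted with it. With overlapping regions merged, the share was 2.43%, against 1.65% of the other places, and with summits matched within 100 bp it was 1.80%, against 1.11%.

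The order of signals repeated weakly. Over the 84 regions found in both replicates Spearman's rho between the replicate signals was 0.27, against 0.13 over 10318 other regions. It is a description over sites of the same libraries, and with tRNA genes up to 1000 bp away it was 0.12 over 131 regions, against 0.13. The median gap between the ranks was 8343 near tRNA genes and 7777.5 in the others. For regions whose tRNA gene lay outside protein-coding genes rho was 0.36 (n = 60), and for those at intronic tRNA genes it was 0.011 (n = 24). On X rho was 0.35 (n = 45) and on the autosomes 0.13 (n = 39). Some pooled regions overlap the same replicate regions, as at C18A11.t2, C04E7.t1 and Y38E10A.t1, so the same pair of signals enters rho repeatedly. These genes lie outside protein-coding genes, and C18A11.t2 and C04E7.t1 lie on X. The effect of such repeats on rho was not tested.

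The largest gaps in rank went in both directions. The region 207 bp upstream of the glutamate gene rte-1 had a pooled signal of 28.7 (rank 1812), with 8.64 in replicate 1 (rank 28222) and 21.5 in replicate 2 (rank 326). The region near the tyrosine gene T22F7.t1 had 30.8 (rank 1225), with 9.14 in replicate 1 (rank 25347) and 19.7 in replicate 2 (rank 555). The region 24 bp downstream of the lysine gene C33G3.t2 had 27.8 (rank 2152), with 20.2 in replicate 1 (rank 1272) and 7.01 in replicate 2 (rank 25665). In each of these 1 replicate alone was high, although the pooled rank was within the 3000 highest.

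**Figure D2:**
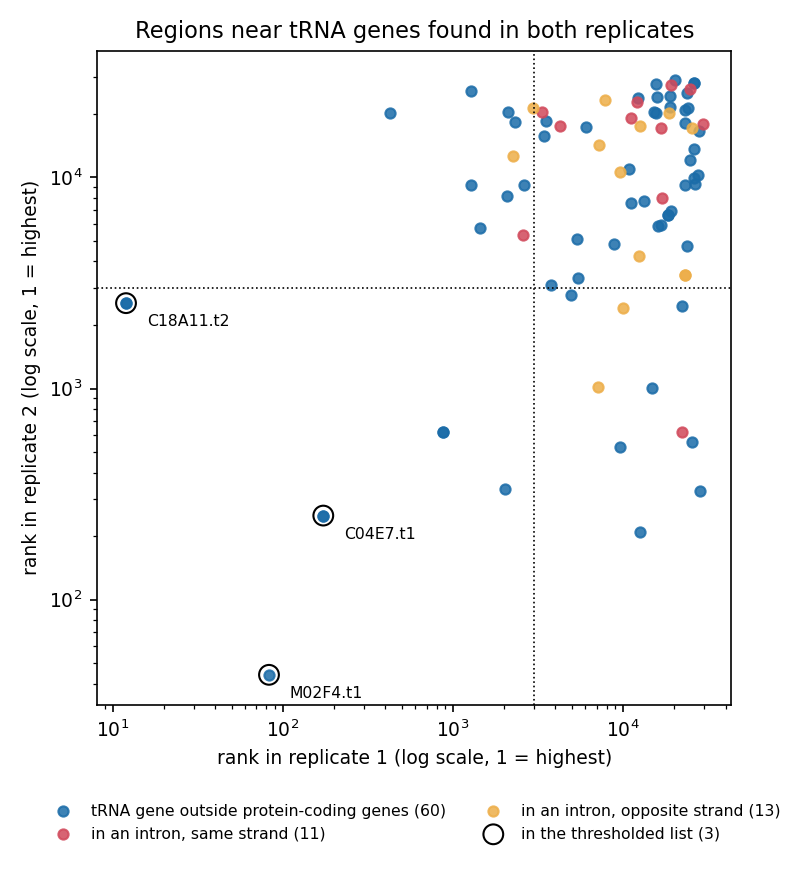
Ranks in replicate 1 and replicate 2, both on log scales, of the 84 regions near tRNA genes found in both replicates; circles mark the 3 thresholded regions and dotted lines mark rank 3000. Of the circled regions, M02F4.t1 and C04E7.t1 are high in both replicates and C18A11.t2 lies near the dotted line for replicate 2 (rank 2538), and most others lie above rank 3000 in at least 1 replicate; some points share a place because pooled regions overlap the same replicate regions.

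Counted per gene, 221 of the 612 tRNA genes (36.1%, interval 32.3 to 40.1%) had a pooled region within 500 bp. Of these, 189 had 1 region, 30 had 2 and 2 had 3. In the replicate lists the numbers were 217 genes (35.5%) in replicate 1 and 218 (35.6%) in replicate 2. The genes differed between replicates: 109 had a region in both, 108 in replicate 1 only, 109 in replicate 2 only and 286 in neither. Limited overlap was also seen over all nuclear bases. Of these, 27.1% lay within 500 bp of a summit in replicate 1, 27.2% in replicate 2 and 11.6% in both.

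The shares for tRNA genes were above the share of all nuclear bases, exons included, that lies near a summit. Of the 5′ ends of tRNA genes, 34.0% (interval 30.2 to 37.9%) lay within 500 bp of a pooled summit, against 26.8% of all nuclear bases. In replicate 1 the shares were 33.2% of 5′ ends and 27.1% of bases, and in replicate 2 they were 34.3% and 27.2%. Near a summit of both replicate lists lay 15.8% of 5′ ends (interval 13.05 to 18.99%) and 11.6% of bases. The replicates were alike in this excess. tRNA genes are clustered, so these intervals are too narrow. The share of bases near a pooled summit was lower in exons, at 20.04%, than in intergenic sequence (30.8%) or introns (28.4%). Few tRNA genes overlap an exon: 10 do, while 319 lie outside protein-coding genes and 283 in introns. All bases, and those of X and of the autosomes below, are therefore a lower baseline than sequence placed like the genes. How much of the excess goes with this placement was not tested.

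The shares were further above those of the genome on X and outside protein-coding genes than on the autosomes and in introns, though these differences between classes of genes were not tested. On X 39.1% of 5′ ends (interval 33.3 to 45.2%) lay near a pooled summit, against 27.7% of the bases of X. On the autosomes it was 29.8% of 5′ ends (interval 24.9 to 35.0%), against 26.7% of bases. For genes outside protein-coding genes the share was 37.6% (interval 32.3 to 43.2%), against 30.8% of intergenic bases. For genes in introns it was 29.7% (interval 24.4 to 35.4%), against 28.4% of intronic bases. Intronic tRNA genes thus lay near a summit about as often as other intronic sequence, and in the replicates the values were 28.6% against 28.3% and 27.6% against 28.3%. Among genes outside protein-coding genes the difference between chromosomes was not the same in each list. On X the share was 44.4% in the pooled list, 37.8% in replicate 1 and 43.3% in replicate 2, against 32.8%, 32.3% and 32.4% of intergenic bases of X. On the autosomes it was 28.8% in the pooled list, 36.7% in replicate 1 and 35.3% in replicate 2, against 30.3%, 30.1% and 29.9% of intergenic bases there.

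**Figure D3:**
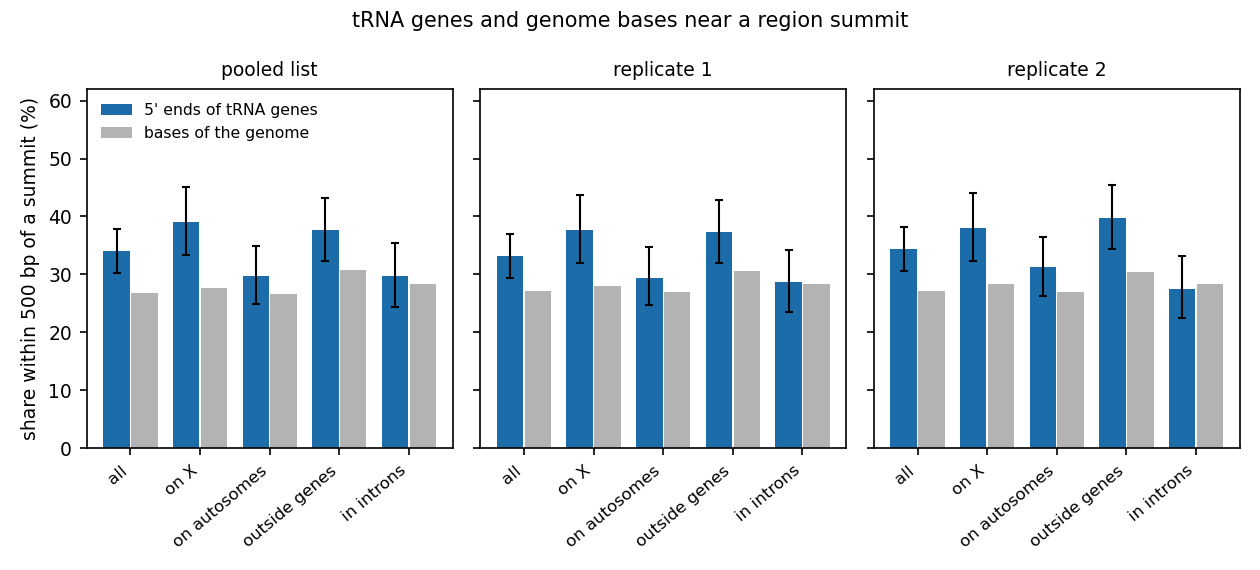
Share of 5′ ends of tRNA genes (blue, with exact 95% intervals) and of genome bases (grey) within 500 bp of a region summit, for the pooled list and each replicate; the grey bars are all bases, bases of X, bases of autosomes, intergenic bases and intronic bases. Blue exceeds grey for all genes, on X and outside genes in each list, and the bars for introns are nearly level.

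Regions at intronic tRNA genes had a median lower in the order than those at tRNA genes outside protein-coding genes. Of the 612 tRNA genes, 319 lie outside protein-coding genes, 161 in an intron on the strand of the host, 122 in an intron on the opposite strand, and 10 overlap an exon. The nearest tRNA gene was intronic for 86 of the 222 regions (38.7%), 44 on the same strand and 42 on the opposite strand. It lay outside protein-coding genes for 131 and overlapped an exon for 5. The median rank was 16713 (95% interval 12929 to 19864) for intronic tRNA genes and 13928 (10448 to 16036) for those outside protein-coding genes; these intervals overlap and the difference was not tested. The 3000 highest held 4 of the 86 (4.65%, interval 1.28 to 11.5%) and 21 of the 131 (16.0%, interval 10.2 to 23.5%). Both replicates held a region for 24 of 86 (27.9%, interval 18.8 to 38.6%) and for 60 of 131 (45.8%, interval 37.1 to 54.7%).

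None of the 86 was among the 3000 highest of both replicates, which allows a share of up to 3.49%, against 8 of 131, which are 5 places. The share was 1.84% of all nuclear regions and 1.27% of the others with an intronic summit, so 0 of 86 is near what the list gives. The median rank was 14570 on the host's strand (95% interval 11252 to 19238) and 17804 on the opposite strand (11923 to 23312), and these intervals overlap. The other nuclear regions were ordered in the same way. Of those with an intronic summit 8.19% were among the 3000 highest and 33.0% were found in both replicates, and of those with an intergenic summit 12.4% and 37.5%. By the place of the summit itself, 68 regions near tRNA genes (30.6%) were intronic, 121 (54.5%) intergenic and 33 (14.9%) exonic, against 38.5%, 45.8% and 15.7% of the others.

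The 5 highest intronic regions had the following values. Y65A5A.t2, an alanine gene opposite to its host Y65A5A.1, had 30.4 (rank 1313), with ranks of 7094 in replicate 1 and 1021 in replicate 2. C02F12.t1, a methionine gene on the strand of its host C01C4.3, had its summit inside the tRNA gene and a signal of 30.3 (rank 1341), with ranks of 3317 and 20389. C56G7.t1, a lysine gene opposite to hecw-1, had 28.7 (rank 1801), with ranks of 10004 and 2419. For C56G7.t1 the start of hecw-1 lay 22 bp from the summit, nearer than the tRNA gene at 339 bp. For Y65A5A.t2 the start of Y65A5A.1 lay 148 bp from the summit, nearer than the tRNA gene at 423 bp. R04A9.t1, a glutamine gene opposite to ZK1193.2, had 26.6 (rank 2738), with ranks of 2260 and 12636. C37A2.t1, a cysteine gene in cye-1, the gene of cyclin E, which drives entry into S phase, had 25.8 (rank 3121), with no region in replicate 1 and rank 4600 in replicate 2. None of the 5 was within the 3000 highest of both replicates.

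By isotype, the amino acid that the tRNA carries, the regions were spread over 20 isotypes. An isotype was known for 607 of the 612 genes, and 2 regions lay at genes without one. Among isotypes with at least 5 regions, median ranks ran from 9035.5 for valine (12 regions) and 9659.5 for glutamate (16) to 23450 for tyrosine (9) and 23974 for aspartate (9). Phenylalanine (8 regions, 11044.5), lysine (18, 11077), arginine (21, 11983), methionine (5, 12172), threonine (11, 13152), glutamine (8, 13288.5), proline (15, 13935), serine (11, 14064) and alanine (14, 14246) had medians higher in the order than the 14991 of the other nuclear regions. Glycine (18, 16722), leucine (19, 19341), isoleucine (12, 19989) and asparagine (6, 20608.5) had lower ones. Ranks within an isotype covered most of the list, from 47 to 29201 for arginine and from 43 to 29492 for glycine, so neighbours in this order overlap almost wholly.

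Arginine had 5 of its 21 regions among the 3000 highest, the largest count, but it also had the most regions of any isotype. Glutamate had 3 of 16, alanine 3 of 14 and methionine 2 of 5, while proline had 0 of 15 and isoleucine 0 of 12. The background over all nuclear regions is 10%, and differences between isotypes were not tested. Isotypes with low medians still held single high regions, such as C04E7.t1 for leucine and C16D9.t4 for tyrosine. The highest region of serine was at F22F1.t8 (rank 2439), that of glutamine at F47E1.t1 (rank 2231), and that of proline at C16B8.t1 (rank 3702), where the summit lay inside the gene. For aspartate it was at F59C12.t2 (rank 4137), for isoleucine at Y57A10B.t1 in an intron of marc-5 (rank 4989), for phenylalanine at F32A6.t1 in an intron of sto-2 (rank 7178) and for asparagine at F41D9.t3 in an intron of sulp-3 (rank 13570). Asparagine had no region near the top of the list.

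The share of genes with a pooled region ranged from 2 of 20 for histidine (10%, interval 1.23 to 31.7%) to 21 of 42 for proline (50%, interval 34.2 to 65.8%) and 7 of 14 for phenylalanine (50%, interval 23.0 to 77.0%). The low value for histidine did not repeat in replicate 1, where 8 of 20 genes (40%) had a region, while replicate 2 had 3 of 20 (15.0%). In the pooled list cysteine had 4 regions, tryptophan 3 and histidine 1. The single selenocysteine tRNA gene had none there or in replicate 1, but had a region in replicate 2.

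**Figure D4:**
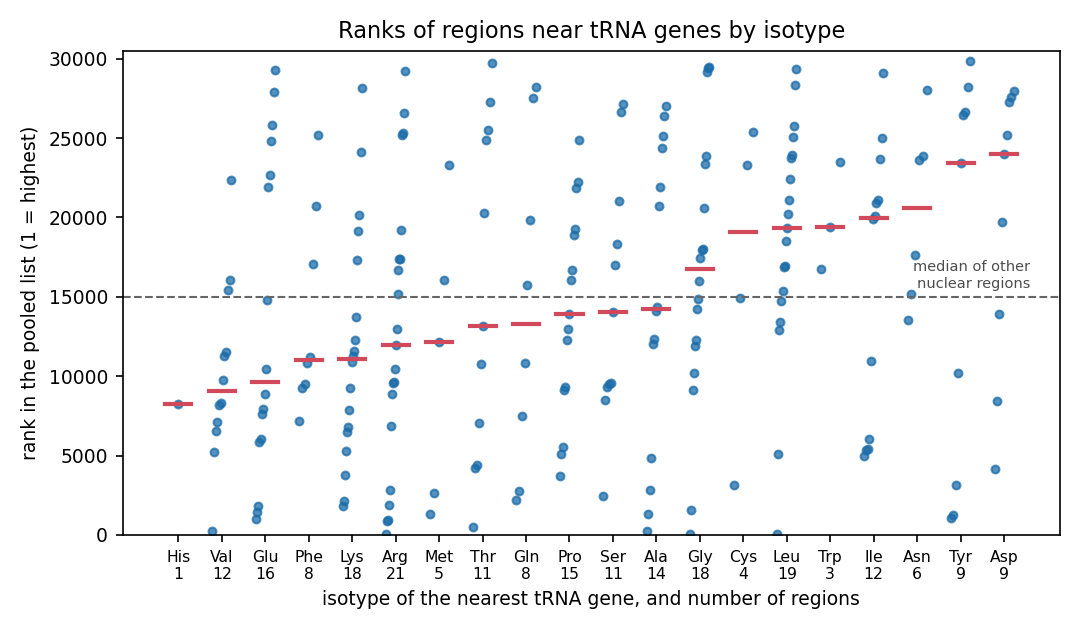
Pooled rank of each region near a tRNA gene (points; 1 is highest, at the bottom of the axis) by isotype of the nearest tRNA gene, with the median of each isotype (red bars) and the number of regions under each name; 2 regions without an isotype are not drawn. Isotypes are ordered by median rank, and within most of them the points cover nearly the whole range on both sides of the dashed median of the other nuclear regions, 14991.

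Summits were denser close to tRNA genes than in the genome at large. This was not seen at the genes without a second copy, where the density within 200 bp was 0.913 times the genome mean. That value rests on only 18 summits in 65982 bases, and no interval was computed for it. Of the 222, 109 lay upstream, 18 inside and 95 downstream of the gene along its strand. Within 200 bp of a tRNA gene there were 125 summits in 273122 bases, or 0.458 per kb. Beyond 200 and up to 500 bp there were 0.324 per kb, beyond 500 and up to 1000 bp 0.301 per kb, and in the nuclear genome 0.299 per kb. The density within 200 bp was 1.53 times that of the genome in the pooled list, 1.38 times in replicate 1 and 1.40 times in replicate 2. The genome mean includes exons, so it is a lower baseline than sequence placed like the genes. How much of the higher density goes with this placement was not tested. The densest 100 bp bin lay between 100 and 200 bp upstream, with 31 summits (0.595 per kb), but single bins were uneven and the replicates did not share 1 peak position.

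Regions closest to the genes, where summits were denser, did not rank higher as a set. Regions within 200 bp had a median rank of 15415 (95% interval 13152 to 18333), and 8% were among the 3000 highest (interval 3.90 to 14.2%). Regions further than 200 bp had a median rank of 12955 (10212 to 16678), and 15.5% were among the 3000 highest (interval 8.92 to 24.2%). The rank intervals overlap, and both intervals of the shares hold the 10% of all nuclear regions. The difference was not tested. The 18 regions with the summit inside a tRNA gene had a median rank of 13831.5. At the limit of the rule, the 7 regions just inside it, at 482 to 498 bp, had signals from 13.7 to 41.8, and the 7 just outside, at 503 to 520 bp, had signals from 13.2 to 27.8.

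**Figure D5:**
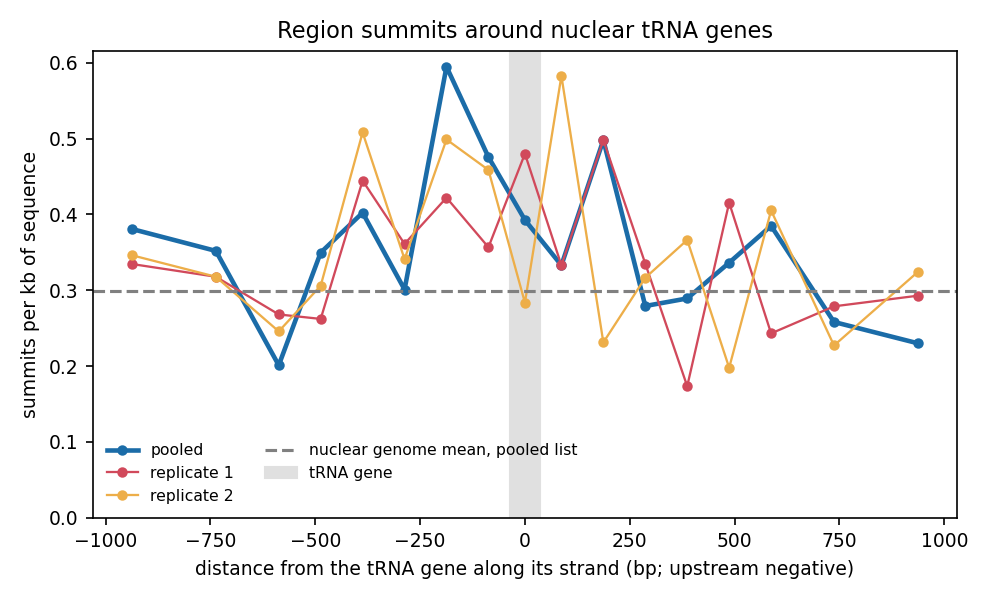
Summits per kb of sequence by distance from the nearest tRNA gene along its strand (upstream negative; the grey band is the gene) in the pooled list and each replicate, with the nuclear genome mean of the pooled list, 0.299 per kb, as a dashed line. Values scatter around the dashed line beyond 500 bp, and all 5 pooled bins within 200 bp lie above it, the highest at 0.595 per kb. The dashed mean includes exons and is a lower baseline than sequence placed like the genes.

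Values were also given apart for tRNA genes with and without an identical copy elsewhere, and the difference was not tested. Of the 612 genes 140 have a sequence found at no other place, the median gene has 10 copies, and the largest family has 29. Regions at genes without a second copy (36) had a median rank of 18831 (95% interval 13928 to 23662), and those at genes with copies (186) had one of 13921.5 (11923 to 16054), so the intervals overlap. The 3000 highest held 1 of 36 (2.78%, interval 0.0703 to 14.5%) and 24 of 186 (12.9%, interval 8.45 to 18.6%), and both intervals hold the 10% of all nuclear regions. Both replicates held a region for 8 of 36 (22.2%, interval 10.1 to 39.2%) and for 76 of 186 (40.9%, interval 33.7 to 48.3%). Both of these intervals hold the 34.7% of all nuclear regions. None of the 36 was among the 3000 highest of both, which allows up to 8.33%, against 8 of 186 (4.30%) and 1.84% of all nuclear regions. At genes with copies the summit density within 200 bp was 1.72 times the genome mean. By gene, 40 of 140 without a second copy (28.6%) had a pooled region, 32 of 83 with 2 to 5 copies (38.6%), 47 of 100 with 6 to 10 (47.0%) and 102 of 289 with more (35.3%), so the share did not follow the number of copies throughout. How reads that fit several copies were placed is not given in the sources used here, and its part in the result was not tested.

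On X the regions near tRNA genes had a median rank of 14159 and the other regions 14801; 16 of 116 (13.8%, interval 8.09 to 21.4%) and 10.5% were among the 3000 highest. On the autosomes the medians were 16026.5 and 15030.5, and the shares 9 of 106 (8.49%) and 9.90%. The density within 200 bp was 1.81 times the mean of X on X and 1.28 times the autosomal mean on the autosomes. Both means include exons, so they too are lower baselines than sequence placed like the genes. Among the 3000 highest of both replicates were 6 of the 116 on X (5.17%, interval 1.92 to 10.9%), which are 4 places, against 1.82% of the other regions on X.

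A protein-coding gene start lay within 1 kb of the summit for 78 regions near tRNA genes (35.1%) and for 35.8% of the others. Without such a start, 17 of 144 regions near tRNA genes (11.8%, interval 7.03 to 18.2%) and 8.96% of the others were among the 3000 highest. With one, the shares were 8 of 78 (10.3%) and 11.9%.

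Of the other classes of short RNA genes with regions, snRNA genes stood furthest from tRNA genes in the share of their regions that ranked high. No difference between classes was tested. Over all nuclear regions 10% were among the 3000 highest and 1.84% among the 3000 highest of both replicates. Near tRNA genes, 11.3% of 222 regions were among the 3000 highest and 3.60% among the 3000 highest of both replicates, with 3 in the thresholded list. Of 37 regions within 500 bp of an snRNA gene the shares were 29.7% (interval 15.9 to 47.0%) and 27.0% (interval 13.8 to 44.1%). The thresholded list held 4 of the 37 (10.8%, interval 3.03 to 25.4%), against a background of 0.447%. The snRNA interval for the 3000 highest of both replicates lies above that of tRNA genes, but overlapping regions were not merged here. By gene, 34 of 129 snRNA genes (26.4%) had a pooled region, fewer than the 36.1% of tRNA genes. snRNAs are the RNAs of the spliceosome, and their genes have external promoters. Of 157 regions near snoRNA genes, whose RNAs guide chemical modification of other RNAs, 17.8% (interval 12.2 to 24.7%) and 5.73% (interval 2.65 to 10.6%) were in these sets. Of 85 near miRNA genes 12.9% and 1.18% were, and of 2650 near piRNA genes 11.9% and 1.32%. The intervals of these 3 classes overlap those of tRNA genes. Near starts of protein-coding genes, 13.3% and 3.41% of 6269 regions were. None of the 20 rRNA genes had a region.

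Protein-coding genes of RNA polymerase III transcription and tRNA processing carried regions about as often as other protein-coding genes. Of 31 genes listed, 30 were in the annotation, and 13 of these (43.3%) had a region for which their start was the nearest within 1 kb, against a background of 41.3% of nuclear protein-coding genes. None of the 13 was among the 3000 highest, which allows a share of up to 23.1%, against 14.9% of all such genes, and their median best rank was 9151, against 11953.5. The highest was at tut-1, which acts in thiolation of tRNA wobble bases, with a signal of 25.5 (rank 3340), and its ranks were 8437 in replicate 1 and 19782 in replicate 2. The next were rpac-19, a subunit shared by RNA polymerases I and III (rank 4942), and the pseudouridine synthase gene pus-1 (rank 6588). mafr-1, which encodes the polymerase III repressor MAF1, had rank 8767, and ssb-1, which encodes the La protein that binds new polymerase III transcripts, had rank 8907. The polymerase subunit genes rpc-1 and rpc-2, the initiation factor genes brf-1 and tbp-1, and tftc-1, tftc-3 and tftc-5, which encode parts of TFIIIC, had no assigned region.

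Short sequence words in the 330 bp regions were counted on both strands, each word by itself. GTTCGA occurred in 71 of 222 regions near tRNA genes (32.0%, interval 25.9 to 38.6%) and in 9.87% of the others, or 10.04% of all nuclear regions. It marks tRNA genes, so the rule itself raises this count. AGGTCA, an element that many nuclear hormone receptors bind, occurred in 21 (9.46%, interval 5.95 to 14.1%) and in 6.88% of the others, 6.90% of all. GAGAGA occurred in 47 (21.2%, interval 16.0 to 27.1%) and in 15.1% of the others, 15.1% of all. Some tRNA genes hold GAGAGA themselves, as the leucine gene C04E7.t1 does, so the rule can raise this count too. Among the 3000 highest, GAGAGA occurred in 5 of 25 regions near tRNA genes (20%) and in 22.4% of the others. GTTATAAC occurred in 4 regions near tRNA genes (1.80%, interval 0.493 to 4.55%) and in 0.376% of the others, 0.387% of all. One of these 4 is the thresholded region at C18A11.t2. GTTATAAC is printed above from that summit and was chosen after values were seen, so its choice can raise this count. Median GC content was 34.5% near tRNA genes and 30.6% in the others.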

How the data were processed

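ChIP-seq of eGFP-tagged NHR-28 in L1 larvae gave 2 replicates of 1 group, per the labels. The deposited narrowPeak lists were used on build ce11. Per the deposited file listing, candidate regions (peaks with background) were listed from each replicate against a control and from both together, and the thresholded list came from these 3. The signal of a region is the authors' deposited value and ranks regions within 1 list only. No aligner, caller or threshold is named in the sources used here. Depth is unknown.

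Summits (start plus offset) were compared with tRNA genes of Ensembl release 115 (WBcel235), with isotypes and tRNA pseudogenes from RefSeq by gene identifier. A replicate region was matched by overlap of at least 1 bp, taking the highest signal. A thresholded peak was matched by overlap with summits within 50 bp. Shares have exact 95% Clopper-Pearson intervals from scipy 1.17.1, and a count of 0 allows 3 counts. Counting was checked on simulated data with known answers. Regions are not replicates and there was 1 group, so no test was made.

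The regions, lists and words were chosen with earlier results of these data known. Named tRNA genes are those nearest to the thresholded regions, the 10 highest regions, the 3 largest rank gaps, the highest region of each isotype with at least 5 regions, and the 5 highest intronic regions. The sequence words counted, and the genes named at repeated replicate regions, were chosen after values were seen. Alternatives were other distances, overlaps and numbers of highest regions, merged regions, each replicate list alone, and genes without a second copy.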

Additional observations from a re-analysis of the deposited data

How the results depend on the processing

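The number of regions was 125 at 200 bp and 361 at 1000 bp, and the share of tRNA genes with a region was 20.4% and 52.5% at these distances. With an overlap of 50% of both regions, 23.4% of regions near tRNA genes and 23.9% of the others were found in both replicates, and with summits within 100 bp, 18.9% and 17.5%. Among the 1000 highest were 4.05% and 3.33%, and among the 6000 highest 18.9% and 20.02%. At tRNA genes with no second copy the median rank was 18831, 2.78% were among the 3000 highest, 22.2% were in both replicates and 0 among the 3000 highest of both, and the density within 200 bp was 0.913 times the genome mean. The cause was not tested. By summit, 30.6% of regions near tRNA genes and 38.5% of the others were intronic. In 49 other settings the value stayed within its interval over regions or, for numbers and density ratios, within 1.5 times, among them each replicate alone, with 215 and 212 regions, median ranks of 15758 and 16352.5, 12.1% and 11.3% among the 3000 highest and 35.6% and 35.5% of genes with a region (replicate 2 alone, then replicate 1 alone). Alternatives for density and rank agreement were chosen after seeing the data. No paired analysis was possible because there is 1 group. With 2 replicates and unknown depth, neither biological spread nor the precision of low ranks can be stated.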

Other observations

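tRNA pseudogenes resemble tRNA genes but are annotated as not functional. A region lay within 500 bp of 36.1% of the tRNA genes and of 62 of 209 nuclear tRNA pseudogenes (29.7%). The median rank was 14764.5 and the median signal 17.2 for the 222 regions near tRNA genes, and 10961 and 18.9 for the 58 regions near pseudogenes. Among the 3000 highest were 25 of 222 regions near tRNA genes (11.3%) and 4 of 58 near pseudogenes (6.90%, exact 95% interval 1.91 to 16.7%). The background over all nuclear regions is 10%. Both replicates held 37.8% and 31.0%, against a background of 34.7%. None of the 58 was among the 3000 highest of both replicates or in the thresholded list, which allows a share of up to 5.17%. The backgrounds there are 1.84% and 0.447%, so 0 of 58 is near what the list gives. With pseudogenes counted together with tRNA genes there were 278 regions with a median rank of 13931.5.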
